A study of Mus musculus with 6 samples.

Results

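Chromatin accessibility was examined at 9 genes of the giant filaments, the M-band and the Z-disc of the sarcomere in mouse skeletal muscle nuclei: Ttn, Neb, Nebl, Myom1, Myom2, Myom3, Mybpc1, Mybpc2 and Ldb3. Members were all intervals of the deposited ATAC-seq table that overlap the body of one of these genes, or lie within 1 kb of one of their transcription start sites (TSS), in the GENCODE vM1 annotation of mm9. This gave 38 of the 39768 intervals of the table, 15 of them with their midpoint within 1 kb of a TSS (promoter intervals) and 23 elsewhere in the gene (gene-body intervals). In ATAC-seq the transposase Tn5 cuts exposed DNA, so that the count of fragment ends in an interval measures how accessible it is. There were 3 CTL libraries and 3 libraries labelled H2A.Z dKO, each made from 50000 nuclei of mice aged 7 weeks labelled as strain C57BL/6. All mice were homozygous for floxed alleles of both genes of the histone variant H2A.Z, H2A.Z-1 (H2afz) and H2A.Z-2 (H2afv). The H2A.Z dKO mice also carried Cre under the HSA promoter, which is active in skeletal muscle fibres, and the CTL mice (WT in the labels) carried none. Nuclei of other cell types in the muscle therefore keep H2A.Z in both groups. The labels name the tibialis anterior, whereas the methods describe hind limb muscles, and they do not say whether each library came from its own mouse, so p-values measure the spread between libraries.

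The sarcomere is the contractile unit of striated muscle, bounded by Z-discs and centred on the M-band. Titin (Ttn) spans from the Z-disc to the M-band, nebulin (Neb) runs along the thin filament and nebulette (Nebl) is its short relative, best known from heart. Myomesins (Myom1, Myom2, Myom3) link thick filaments at the M-band, myosin-binding proteins C of the slow (Mybpc1) and fast (Mybpc2) type sit on the thick filament, and Ldb3 (also called ZASP or Cypher) is a PDZ-LIM protein of the Z-disc. H2A.Z replaces H2A in nucleosomes and is found around the TSS of active genes, and the comparison asks whether these genes of mature fibres keep their accessibility in its absence.

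The sequences that follow show the promoter interval of 5 genes, and then the 4 gene-body intervals with an unadjusted p under 0.05 in the comparison of groups, chosen after their values were seen. Each is the reference sequence of mm9 on the strand of the gene, 5′ to 3′, limited to the longest stretch of the interval outside annotated exons. Capitals mark matches, on either strand, to the MEF2 motif, the SRF CArG box, the TEAD-type motif CATTCC, the E-box CAGCTG and the GC box GGGCGG.
Ttn Peak_3654, chr2:76820605-76820782, minus strand: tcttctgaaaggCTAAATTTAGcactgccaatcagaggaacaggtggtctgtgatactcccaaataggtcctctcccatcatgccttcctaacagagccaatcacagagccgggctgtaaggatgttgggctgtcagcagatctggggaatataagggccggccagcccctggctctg
Neb Peak_3357, chr2:52190724-52190859, minus strand: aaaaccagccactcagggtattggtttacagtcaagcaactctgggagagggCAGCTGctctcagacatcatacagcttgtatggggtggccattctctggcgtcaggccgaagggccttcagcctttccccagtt
Myom1 Peak_36119, chr17:71368736-71368860, plus strand: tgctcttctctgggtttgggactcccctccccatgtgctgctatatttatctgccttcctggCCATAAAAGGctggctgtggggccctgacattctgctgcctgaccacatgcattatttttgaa
Mybpc2 Peak_15218, chr7:51780040-51780122, minus strand: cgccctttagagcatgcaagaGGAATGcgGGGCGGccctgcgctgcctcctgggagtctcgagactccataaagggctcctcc
Ldb3 Peak_30555, chr14:35401868-35402050, minus strand: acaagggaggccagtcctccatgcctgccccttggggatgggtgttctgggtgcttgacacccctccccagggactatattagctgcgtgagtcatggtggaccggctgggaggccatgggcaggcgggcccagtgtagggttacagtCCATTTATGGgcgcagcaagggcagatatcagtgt
Ttn Peak_3651, chr2:76646426-76646475, minus strand: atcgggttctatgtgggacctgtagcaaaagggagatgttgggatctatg
Mybpc1 Peak_23063, chr10:88043513-88043589, minus strand: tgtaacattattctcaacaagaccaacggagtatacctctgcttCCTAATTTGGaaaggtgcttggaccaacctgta
Mybpc1 Peak_23064, chr10:88043705-88043777, minus strand: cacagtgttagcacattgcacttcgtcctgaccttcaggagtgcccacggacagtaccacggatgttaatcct
Ldb3 Peak_30549, chr14:35362006-35362071, minus strand: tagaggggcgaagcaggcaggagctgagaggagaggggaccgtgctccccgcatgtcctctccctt

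The stretch of Ttn holds a MEF2 match, those of Myom1 and Ldb3 and the first of Mybpc1 hold a CArG box, that of Neb holds CAGCTG, and that of Mybpc2 holds GGGCGG and, on the other strand, CATTCC. The gene-body stretches of Ttn and Ldb3 and the second of Mybpc1 hold no match to these motifs. Among promoter stretches not shown, those of Neb Peak_3358 and Peak_3359 and of Ldb3 Peak_30557 hold none either. Those of Ttn Peak_3653, Mybpc2 Peak_15219 and Peak_15220 and Ldb3 Peak_30556 hold one. A match describes the letters of the sequence and says nothing of a factor bound there.

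Promoter and gene-body intervals were spread unevenly over the 9 genes (see the map of intervals along the genes). Ldb3 had the most, 3 promoter and 6 gene-body intervals in 61983 bp, followed by Neb with 3 and 4 in 202152 bp and Mybpc1 with 1 and 4 in 86874 bp. Ttn, 278568 bp long, had 3 promoter intervals and only 1 in its body. Myom1 had 1 and 3, Myom2 1 and 2, Mybpc2 3 promoter intervals and none in its 22952 bp body, and Myom3 3 gene-body intervals and no promoter interval. Nebl, the longest at 387556 bp, had no interval in this table. The methods describe more union intervals than the 39768 of the table used here, so a gene without an interval in it may have had one called. Of 22367 protein-coding genes 49.1% have a promoter interval, so the lack of one in Nebl and Myom3 is shared by many genes. Of the 954 protein-coding genes of at least 200000 bp, 30.1% have no interval.

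**Figure D1:**
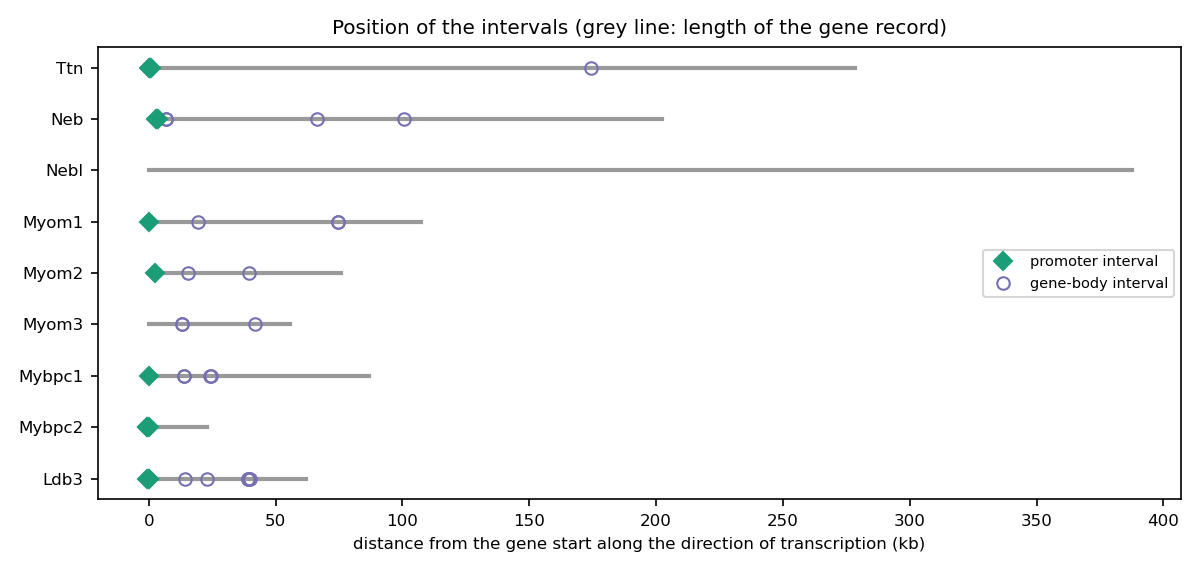
Midpoints of the 38 intervals along the 9 genes, in kb from the gene start in the direction of transcription. Grey lines give the length of each gene record, filled diamonds are promoter intervals and open circles gene-body intervals, and Nebl, 387556 bp long, carries none.

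Per length, the gene body of Ldb3 carried 9.68 intervals per 100 kb, more than 97.8% of the 9718 protein-coding genes of at least 20000 bp. Myom3 (5.37 per 100 kb) exceeded 93.4% of them, Mybpc1 (4.60) 91.5%, Myom1 (2.79) 83.8%, Myom2 (2.64) 83.2%, Neb (1.98) 79.3% and Ttn (0.359) 68.6%. Only 32.6% of these 9718 genes have a gene-body interval, and the median over all of them is 0 per 100 kb. The rank of Ttn thus places it little further than above the genes without a gene-body interval. Of the 15 promoter intervals, 11 lie at the start of the gene record and 4 at a TSS inside it. The internal ones are the 3 promoter intervals of Neb, 2885 to 3526.5 bp from the gene start by their midpoints, and the one of Myom2, at 2551.5 bp. By context, 8 promoter intervals overlap an exon, 4 lie in an intron and 3 upstream of the gene. Of the gene-body intervals 21 are intronic, and 2 overlap an exon, 1 in Neb and 1 in Myom2. The intervals of Myom1 also lie within the long noncoding gene Gm16724 on the same strand, whose TSS is not near them. A pair of intervals at Mybpc2 (Peak_15219 and Peak_15220) and a pair at Ldb3 (Peak_30555 and Peak_30556) overlap, so that shared fragment ends count in both.

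Counts in all intervals summed to 3520008 to 6117245 per library in CTL and to 4549968 to 5873299 in H2A.Z dKO. Between the loxP sites of H2afz, the summed level was 12.4 ± 2.83 CPM (counts scaled to the TMM-adjusted library size, SD, n = 3) for CTL, whereas H2A.Z dKO had 11.3 ± 1.28 CPM (p = 0.6, two-sided exact permutation test). The 2 intervals in this segment thus did not separate the groups, the 2 intervals of H2afv were not compared, and group names follow the labels. Over all 39768 intervals 0 had an adjusted p under 0.05 by edgeR's quasi-likelihood test, 0% of those tested, and 1970 (4.95%) had an unadjusted p under 0.05. H2A.Z dKO replicate 1 stood apart, with 77.0% of its counts in promoter intervals against 73.2% to 74.9% in the other libraries. Of 10 fibre markers 7 have a promoter interval (not Atp2a1, Mb and Mylpf), and their summed promoter level was 253 to 338 CPM in CTL and 266 to 353 CPM in H2A.Z dKO. Of 8 endothelial markers 5 have one (not Egfl7, Emcn and Pecam1), and their sum was 71.3 to 82.2 CPM in CTL against 56.5 to 66.1 CPM in H2A.Z dKO. No promoter interval was found at the 7 macrophage markers, while 4 of 7 fibroblast markers have one, with sums of 72.7 to 84.4 and 83.1 to 93.2 CPM. Sums in CTL and H2A.Z dKO overlapped for smooth muscle and pericyte (30.3 to 45.0 and 36.1 to 49.5 CPM), satellite cell (19.5 to 32.1 and 31.0 to 34.6 CPM) and Schwann cell markers (44.1 to 49.6 and 42.6 to 51.8 CPM). None of these marker sums was tested. In bulk nuclei, fewer nuclei of a cell type and less accessible chromatin per nucleus cannot be told apart.

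Levels were compared between genes as RPKM, the counts per kb of interval width, scaled to the total count of the library in all intervals. For each gene the counts were pooled over the total width of its intervals, so that narrow intervals weigh little. At promoters Ldb3 was then highest, at 154 ± 29.6 RPKM (SD, n = 3) in CTL, and Mybpc1 lowest, at 84.1 ± 10.2 RPKM. Between them followed Ttn (124 ± 28.5), Mybpc2 (121 ± 11.2), Myom2 (119.5 ± 30.7), Neb (109.9 ± 9.90) and Myom1 (97.7 ± 26.2). The 16 bp Peak_3652 of Ttn alone was above every interval of Ldb3 in CTL, so the order of these genes depends on the weight given to narrow intervals. Only the step from Ldb3 to Ttn was larger than the SD of both genes, and barely so, at 29.9 RPKM against an SD of 29.6. The CTL libraries of Ldb3 and Ttn overlap, and the other neighbours in this order did not differ beyond their spread. In the libraries labelled H2A.Z dKO the promoters kept this order, from 173 ± 27.4 RPKM in Ldb3 to 74.5 ± 5.23 in Mybpc1.

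In the gene bodies Ldb3 was again highest in CTL, at 146 ± 8.22 RPKM (SD, n = 3). Myom1 (115 ± 17.9), Myom2 (112 ± 9.58), Myom3 (110.3 ± 13.97) and Neb (107 ± 9.98) lay within their spread of each other, below Ldb3 by more than the SD and above Mybpc1 (71.2 ± 6.81) and Ttn (65.6 ± 13.6), which did not differ from each other beyond it. The called intervals of these genes were of ordinary level: the median over the 15 promoter intervals was 124 RPKM in CTL, against 132 RPKM over all 20827 promoter intervals, and that over the 23 gene-body intervals was 106 RPKM, against 99.9 RPKM over all 9685 genic ones. As intervals were called from the signal, these levels say nothing of the DNA between them.

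**Figure D2:**
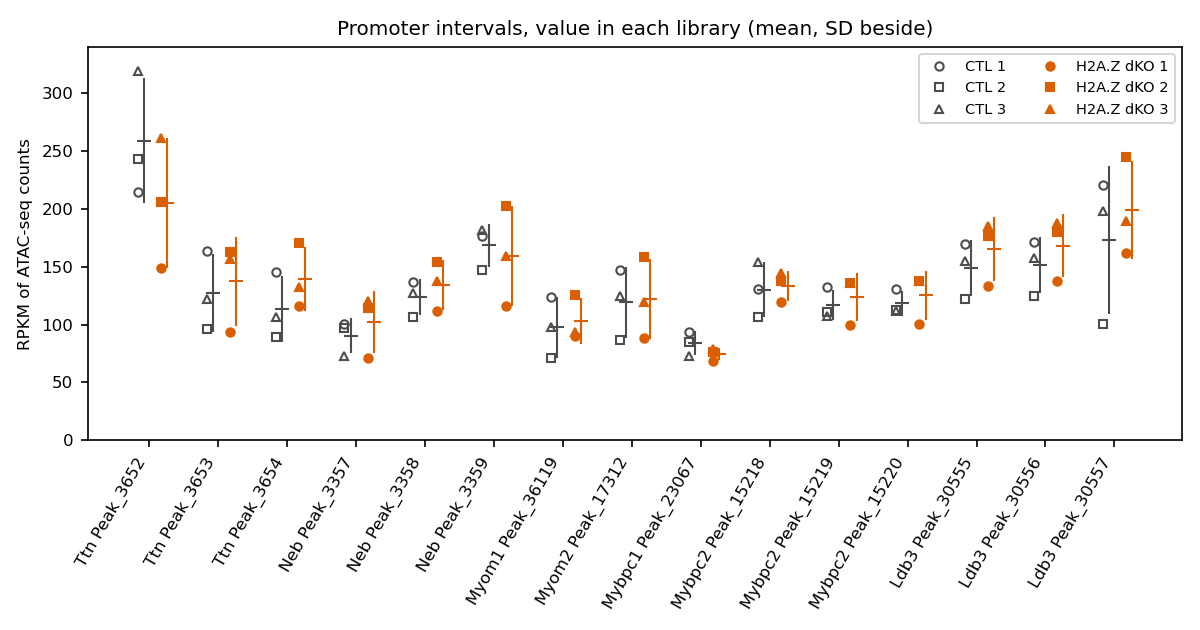
RPKM of the 15 promoter intervals in each of the 3 CTL (open, grey) and 3 H2A.Z dKO (filled, orange) libraries, with the mean and SD (n = 3) beside the points. The groups overlap in all 15 intervals, and the highest level in CTL is that of Ttn Peak_3652, 16 bp wide.

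Between the groups, none of the 38 intervals had an adjusted p under 0.05 (edgeR, 0% of all intervals), and adjusted p-values ran from 0.972 to 0.9995. DESeq2 and limma voom also called 0 of them. The log2 fold change was above 0 in 27 intervals and below 0 in 11 (28.9%), with a median of 0.091, whereas over all intervals 47.5% were below 0 and the median was 0.012. At promoters 11 were above and 4 below 0 (median 0.066), against 47.3% below 0 and a median of 0.011 over all promoter intervals. In gene bodies 16 were above and 7 below 0 (median 0.15), against 46.9% below 0 and a median of 0.019 over all genic intervals. At an unadjusted p under 0.05 there were 4 members, all of them gene-body intervals and higher in H2A.Z dKO, where 2.64% of all intervals were called in this direction and 4.95% in either. These were 4 of 23 gene-body intervals, where 6.17% of all genic intervals passed, and 0 of 15 promoter intervals by edgeR, where 3.83% of all promoter intervals passed. The promoter count of 0 did not hold with every library left out, as Ttn Peak_3654 had an unadjusted p of 0.0225 without CTL replicate 1 (log2 fold change 0.51) and of 0.0424 without H2A.Z dKO replicate 1 (0.36) by edgeR. Its log2 fold change fell to 0.12 without CTL replicate 2 and without H2A.Z dKO replicate 2, with unadjusted p-values of 0.536 and 0.559 by edgeR. Intervals of a gene share their locus and are not independent of each other.

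These counts depended on single libraries. Without H2A.Z dKO replicate 1 only 3 of 38 log2 fold changes were below 0 (49.7% of all intervals), whereas without H2A.Z dKO replicate 3 there were 21 (50.2% of all intervals) and without CTL replicate 2 there were 17 (47.8%). The median over the members was 0.19 without H2A.Z dKO replicate 1, 0.010 without CTL replicate 2, 0.019 without H2A.Z dKO replicate 2 and -0.012 without H2A.Z dKO replicate 3, so that its sign rested on single libraries. At an unadjusted p under 0.05 edgeR gave 6 of 38 members without H2A.Z dKO replicate 1, where 7.95% of all intervals passed. It gave 0 of 38 without H2A.Z dKO replicate 2 (5.38% of all intervals) and 1 without CTL replicate 2 (4.21%). In 34 of 38 members a change of 2-fold or more, up or down, fell outside the 95% confidence interval, as in 91.4% of all intervals, and in 18 members so did a change of 1.5-fold or more (49.6% of all intervals). A member interval held a median of 58.8 counts per library, and the confidence intervals carry both counting error and the spread between libraries, which were not separated.

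**Figure D3:**
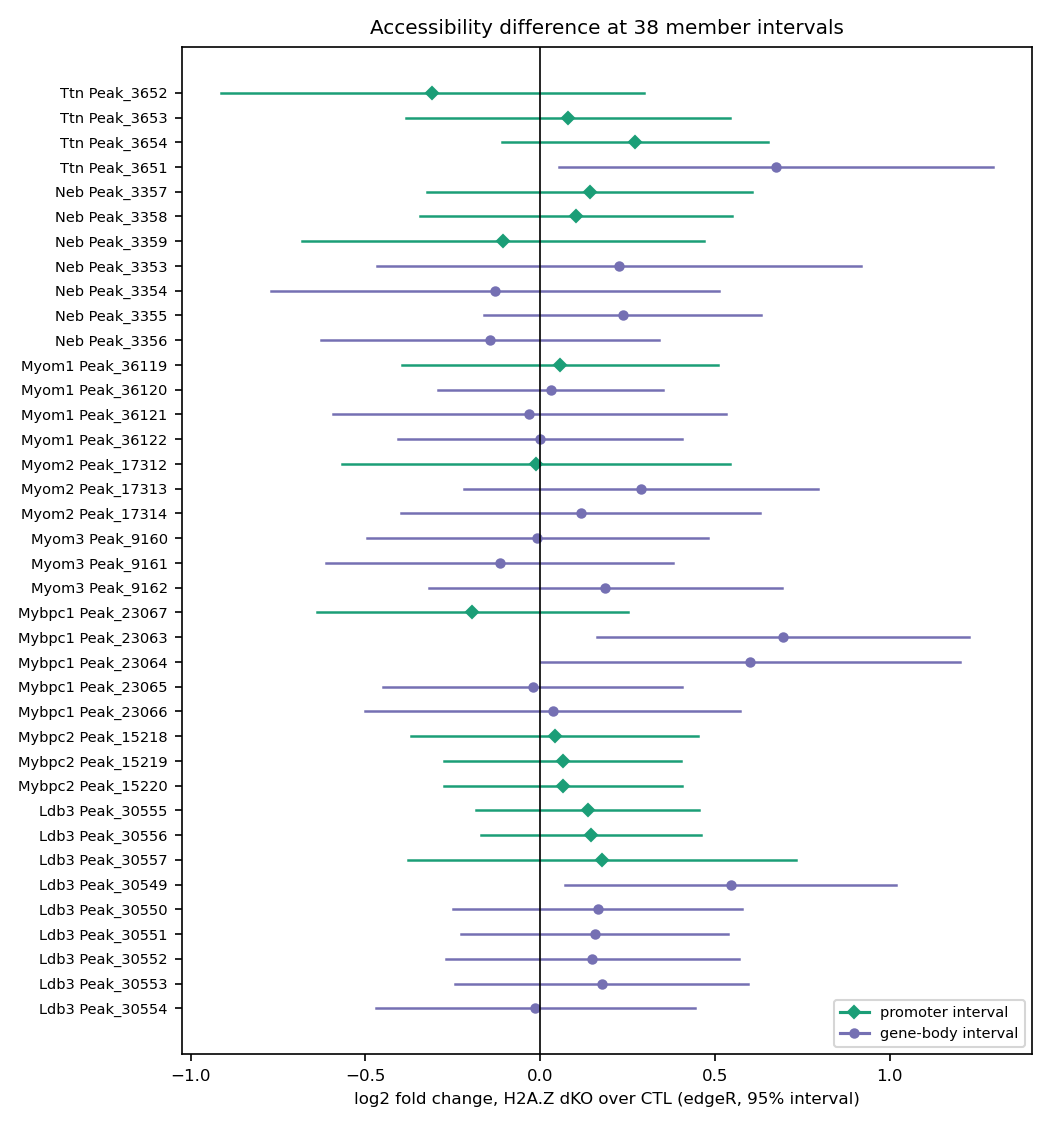
Log2 fold change of H2A.Z dKO over CTL with its 95% confidence interval (edgeR) for the 38 intervals, promoter intervals as diamonds and gene-body intervals as circles. The interval excludes 0 in 4 gene-body intervals, of Ttn, Mybpc1 (Peak_23063 and Peak_23064) and Ldb3, and includes it in all 15 promoter intervals.

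Ttn encodes titin, the largest protein of the sarcomere. Its promoter interval at the gene start, Peak_3654 (chr2:76820530-76820782, 253 bp, overlapping the first exon), had 145, 89.7 and 107 RPKM in CTL replicates 1, 2 and 3 and 116, 170.3 and 132 in H2A.Z dKO replicates 1, 2 and 3. The ranges overlap, and the log2 fold change was 0.27 (SE 0.18, 95% interval -0.11 to 0.65). Just inside the gene, the intronic Peak_3653 (chr2:76819918-76820063) was at 127 ± 33.9 RPKM in CTL and 138 ± 38.5 in H2A.Z dKO, and Peak_3652 (chr2:76819847-76819862, 16 bp) at 259 ± 54.3 and 205 ± 56.2 RPKM (SD, n = 3). The smaller interval had a log2 fold change of -0.31 (95% interval -0.91 to 0.30), the lowest of all members, and the direction at this promoter thus differed between its intervals, none of which changed beyond the spread.

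A single interval lies in the body of Ttn, Peak_3651 (chr2:76646426-76646475, intronic, 50 bp), 174 kb from the gene start. CTL replicates 1, 2 and 3 held 16, 15 and 14 counts there, and H2A.Z dKO replicates 1, 2 and 3 held 22, 33 and 23, corresponding to 52.3, 64.8 and 79.5 RPKM and to 74.9, 145 and 91.6 RPKM. H2A.Z dKO replicate 2 was the highest by far, while H2A.Z dKO replicate 1 lay below CTL replicate 3, so the groups overlap. The log2 fold change was 0.67 (SE 0.30, 95% interval 0.053 to 1.297), with an unadjusted p of 0.0347 and an adjusted p of 0.972 from edgeR's quasi-likelihood test, and without H2A.Z dKO replicate 2 it was 0.39.

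Nebulin, encoded by Neb, is the giant protein of the thin filament. Its 3 promoter intervals lie at internal TSSs: Peak_3357 (chr2:52190724-52190859) in an intron, Peak_3358 (chr2:52191220-52191306) over an exon and Peak_3359 (chr2:52191421-52191445, 25 bp) in an intron. Peak_3358, nearest to a TSS, had 137, 107 and 127 RPKM in CTL and 112, 154 and 137 RPKM in H2A.Z dKO, and its log2 fold change was 0.10 (SE 0.21, 95% interval -0.34 to 0.55). The groups overlapped there, as they did at Peak_3357 (90.3 ± 15.0 and 102 ± 26.7 RPKM) and at Peak_3359 (168 ± 18.8 and 159 ± 43.2 RPKM). In all 3, H2A.Z dKO replicate 1 was the lowest of its group.

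In the body of Neb, the intronic Peak_3355 (chr2:52187338-52187470, 133 bp) had 108, 107 and 94.0 RPKM in CTL and 119, 117 and 130.3 RPKM in H2A.Z dKO. These values did not overlap, which held for 10.8% of all intervals, 5.22% in this direction and 5.63% in the other, and the log2 fold change was 0.24 (SE 0.19, 95% interval -0.16 to 0.63, unadjusted p 0.228 and adjusted p 0.972 from edgeR). Its neighbour Peak_3356 pointed the other way with a log2 fold change of -0.14 (95% interval -0.63 to 0.34). The highest level in the gene body belonged to the 27 bp Peak_3354, at 139.6 ± 17.1 RPKM in CTL and 132 ± 55.8 RPKM in H2A.Z dKO (SD, n = 3), and the exonic Peak_3353 was at 71.5 ± 34.7 and 81.6 ± 30.9 RPKM. Nebl gave no value, as it has no interval.

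The myomesins form the elastic links of the M-band. At the gene start of Myom1, Peak_36119 (chr17:71368736-71368892), whose CArG box is shown above, had 124, 71.5 and 97.7 RPKM in CTL and 90.0, 126 and 93.9 RPKM in H2A.Z dKO. The ranges overlap almost fully, with a log2 fold change of 0.057 (SE 0.22, 95% interval -0.40 to 0.51). Peak_36120 (chr17:71388097-71388551), an intronic interval 19.5 kb inside the gene and at 455 bp the widest of all members, had 141, 120.1 and 98.7 RPKM in CTL and 93.2, 147 and 132 RPKM in H2A.Z dKO. Its log2 fold change of 0.030 has an interval of -0.29 to 0.35, the narrowest among the gene-body members, which allows a level of 0.818 to 1.27 times that of CTL. Further in, Peak_36121 and Peak_36122 lie next to each other near 74.4 kb and 74.6 kb and had log2 fold changes of -0.030 and 0.00054.

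Myom2, the myomesin of fast fibres, had its promoter interval at an internal TSS, Peak_17312 (chr8:15060180-15060229, 50 bp, over an exon), at 147, 86.4 and 125 RPKM in CTL and 88.5, 158 and 119 RPKM in H2A.Z dKO. The groups overlap, and the log2 fold change was -0.011 (SE 0.27, 95% interval -0.57 to 0.54). In its body the exonic Peak_17313 (chr8:15072937-15073095) had 79.2, 119.6 and 91.1 RPKM in CTL and 76.0, 111 and 169 in H2A.Z dKO, where replicate 3 alone was above all CTL libraries. The intronic Peak_17314 had the higher level, 159.9 ± 33.3 RPKM in CTL and 178 ± 47.3 RPKM in H2A.Z dKO (SD, n = 3). Log2 fold changes were 0.29 (95% interval -0.22 to 0.79) and 0.12 (95% interval -0.40 to 0.63).

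Myom3, the myomesin of intermediate fibre types, had gene-body intervals only. Its Peak_9162 (chr4:135357597-135357629, 33 bp, intronic) lies 1054 bp from a TSS, just outside the distance that makes a promoter interval. It had 144, 151 and 146 RPKM in CTL and 159.9, 179.8 and 163 RPKM in H2A.Z dKO. All H2A.Z dKO libraries were above all CTL libraries, by a log2 fold change of 0.19 whose 95% interval of -0.32 to 0.69 includes 0 (unadjusted p 0.450, adjusted p 0.988 from edgeR). At Peak_9160 and Peak_9161, which are close to each other in an intron 13.1 to 13.2 kb from the gene start, the log2 fold changes were -0.0079 and -0.12.

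Mybpc1 encodes the slow type of myosin-binding protein C. Its promoter interval, Peak_23067 (chr10:88067717-88067840, over an exon), had 93.6, 85.4 and 73.3 RPKM in CTL and 68.7, 76.2 and 78.7 RPKM in H2A.Z dKO. It was among the least accessible promoter intervals, above only 8.33% of them, and its log2 fold change of -0.19 (SE 0.21, 95% interval -0.64 to 0.25) was, with that of Ttn Peak_3652, one of 2 below 0 among the 11 promoter intervals at gene starts.

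In an intron of Mybpc1, 24.3 kb from the gene start, Peak_23063 (chr10:88043513-88043589, 77 bp) had 51.0, 50.5 and 48.0 RPKM in CTL, with an SD of 1.61, and 66.3, 97.0 and 82.8 RPKM in H2A.Z dKO. All H2A.Z dKO libraries were above all CTL libraries, and the log2 fold change of 0.69 (SE 0.26, 95% interval 0.16 to 1.23) was the largest of all members, with an unadjusted p of 0.0128 and an adjusted p of 0.972 from edgeR. The level was low, above 9.54% of genic intervals, on 24, 18 and 13 counts in CTL and 30, 34 and 32 in H2A.Z dKO. Next to it, Peak_23064 (chr10:88043705-88043777) had 67.2, 38.5 and 81.7 RPKM in CTL and 65.3, 96.3 and 123 RPKM in H2A.Z dKO. Here H2A.Z dKO replicate 1 lay below CTL replicates 1 and 3, and the log2 fold change was 0.60 (SE 0.29, unadjusted p 0.0494, adjusted p 0.972 from edgeR). It was 0.36 without CTL replicate 2, 0.37 without H2A.Z dKO replicate 3 and 0.81 without H2A.Z dKO replicate 1. The other 2 gene-body intervals, Peak_23065 and Peak_23066, lie nearer to the gene start and had log2 fold changes of -0.021 and 0.036, so that not all intervals of this gene body pointed the same way.

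Mybpc2, the fast type of the same protein family, had its intervals at the gene start only. Peak_15218 (chr7:51780003-51780122), at the TSS and over the first exon, had 131, 106 and 154 RPKM in CTL and 119, 137 and 144 RPKM in H2A.Z dKO. Upstream of the gene, the overlapping Peak_15219 and Peak_15220 (chr7:51780542-51780802 and chr7:51780555-51780803) had 132, 111 and 108 and 131, 113 and 112 RPKM in CTL, and 99.8, 136 and 136 and 101, 138 and 138 RPKM in H2A.Z dKO. In both, H2A.Z dKO replicate 1 was the lowest library of all 6 and replicates 2 and 3 the highest. Log2 fold changes at this promoter were 0.041, 0.065 and 0.066, with 95% intervals that reach no further than -0.37 and 0.45.

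Ldb3 at the Z-disc had the most intervals and, with counts pooled over the total width of a gene's intervals, the highest levels at promoters and in gene bodies. Peak_30555 and Peak_30556 cover nearly the same bases at the gene start (chr14:35401776-35402050 and chr14:35401778-35402053), and Peak_30555 had 170.0, 123 and 155 RPKM in CTL and 134, 177 and 185 RPKM in H2A.Z dKO. The groups overlap, and the log2 fold change was 0.14 (SE 0.15, 95% interval -0.18 to 0.46), while that of Peak_30556 was 0.14. Upstream, the 43 bp Peak_30557 (chr14:35402538-35402580) had 220.5, 100.5 and 198 RPKM in CTL, with CTL replicate 2 far below the other two libraries, and 162, 245 and 189.9 RPKM in H2A.Z dKO. It gave a log2 fold change of 0.18, and one of -0.096 without CTL replicate 2.

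In the body of Ldb3, 4 of the 6 intervals lie within 1 kb of each other in an intron, 39.0 to 39.8 kb from the gene start. Among them Peak_30551 (chr14:35362625-35362736) had the highest level of the gene bodies, 199.96, 218 and 190.2 RPKM in CTL and 231, 273 and 176 RPKM in H2A.Z dKO, above 97.2% of genic intervals. It gave a log2 fold change of 0.16 (SE 0.18, 95% interval -0.23 to 0.54), and H2A.Z dKO replicate 3 was the lowest of the 6 libraries. Peak_30549 (chr14:35362006-35362071, 66 bp), at the far end of this group, had 151, 98.2 and 155 RPKM in CTL and 201, 219.8 and 169 RPKM in H2A.Z dKO. The groups did not overlap there, and the log2 fold change of 0.54 (SE 0.23, 95% interval 0.072 to 1.02) had an unadjusted p of 0.0260 and an adjusted p of 0.972 from edgeR. Without CTL replicate 2 it was 0.36. Peak_30550 and Peak_30552, on either side of Peak_30551, had log2 fold changes of 0.17 and 0.15. Nearer to the gene start, Peak_30553 stood at 0.18 and Peak_30554 at -0.013, the only interval of Ldb3 below 0.

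**Figure D4:**
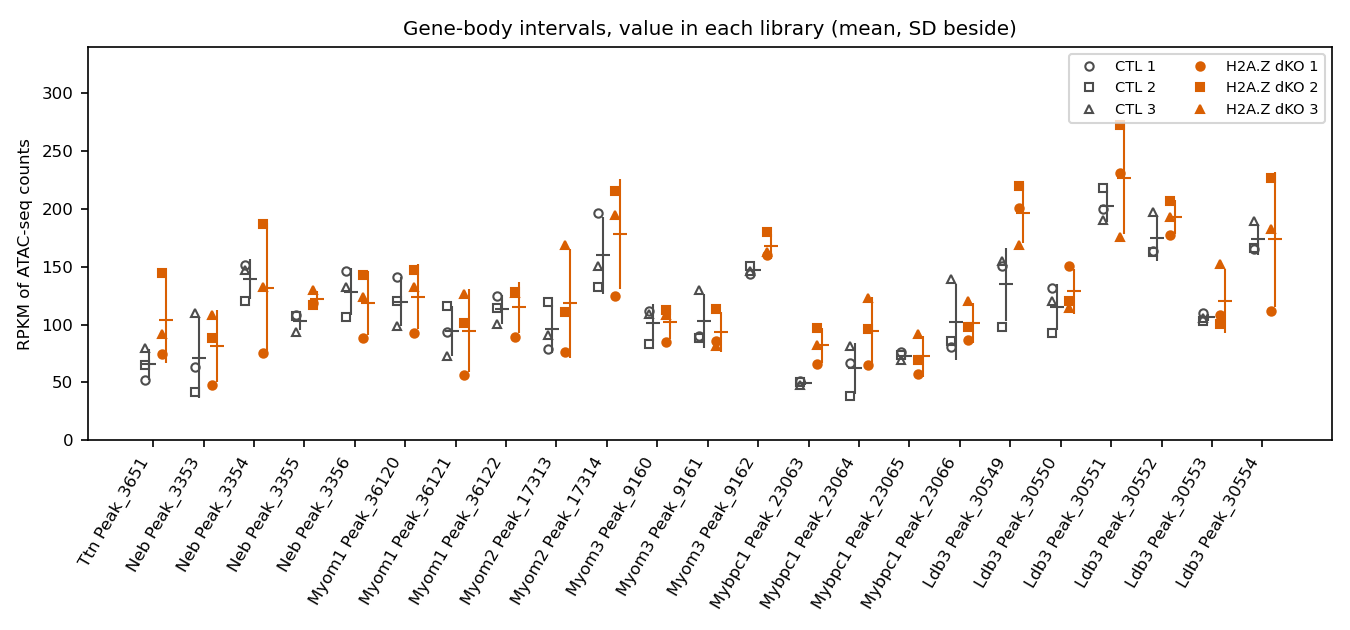
RPKM of the 23 gene-body intervals in each of the 3 CTL (open, grey) and 3 H2A.Z dKO (filled, orange) libraries, with the mean and SD (n = 3) beside the points. The groups do not overlap in 4 intervals, Neb Peak_3355, Myom3 Peak_9162, Mybpc1 Peak_23063 and Ldb3 Peak_30549, all higher in H2A.Z dKO.

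Over all members, groups without overlap were found in these 4 gene-body intervals and in 0 of the 15 promoter intervals, where 10.8% of all intervals have groups that do not overlap. Counts were then summed over the intervals of each gene with more than 1 interval of a class, overlapping intervals included. The promoter sum in H2A.Z dKO was 112% of the CTL level (86.9% to 145%) for Ttn, 107% of the CTL level (83.8% to 136%) for Neb, 104% of the CTL level (87.3% to 125%) for Mybpc2 and 111% of the CTL level (90.0% to 136%) for Ldb3, with the 95% interval in parentheses. All of these intervals include 100%. In the gene bodies the sum was 106% of the CTL level (82.9% to 136%) for Neb, 102% of the CTL level (82.5% to 125%) for Myom1, 118% of the CTL level (88.4% to 157%) for Myom2 and 99.8% of the CTL level (75.1% to 133%) for Myom3. It was 116% of the CTL level (89.9% to 149%) for Mybpc1 and 113% of the CTL level (94.5% to 135%) for Ldb3. For Ldb3 the 3 H2A.Z dKO libraries, at 98.8 to 112 CPM, were above the 3 CTL libraries, at 86.8 to 96.0 CPM (exact permutation test, two-sided p = 0.1, the smallest that 3 against 3 libraries allow). By edgeR this sum had an unadjusted p of 0.176 and an adjusted p of 0.995. It was named because its groups did not overlap, and the share of such sums over all genes was not counted. None of the sums had an adjusted p under 0.05 in the fits of 10980 promoter sums and 3943 gene-body sums of all protein-coding genes, in which 0 (0%) were called by edgeR and 4.26% and 4.89% had an unadjusted p under 0.05.

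Summed over the 13 promoter intervals that do not overlap, the members had 240.2, 174 and 204 CPM in CTL replicates 1, 2 and 3 and 186, 249.5 and 232 CPM in H2A.Z dKO replicates 1, 2 and 3. CTL replicate 2 and H2A.Z dKO replicate 1 were thus the lowest of the 6, as they were in the sum over the promoters of fibre markers. H2A.Z dKO replicate 1 was the lowest of its group in 14 of 15 promoter intervals, whereas over all promoter intervals it was the lowest in 27.8%. CTL replicate 2 was the lowest of its group in 10 of 15, against 32.5% of all promoter intervals. The 23 gene-body intervals summed to 296, 272 and 278 CPM in CTL and 265, 335 and 326 CPM in H2A.Z dKO, where again H2A.Z dKO replicate 1 was the lowest. It was the lowest of its group in 16 of the 23, as in 60.1% of all genic intervals. The mean over the group was 206 ± 33.3 CPM in CTL and 223 ± 33.1 CPM in H2A.Z dKO at promoters, and 282 ± 12.3 CPM and 309 ± 38.5 CPM in gene bodies (SD, n = 3). At promoters the groups differed by less than the SD of either group, and in gene bodies by more than the SD of CTL and less than that of H2A.Z dKO, with H2A.Z dKO replicate 1 below all CTL libraries. The part of fibre nuclei, or of other nuclei, in these values was not tested.

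**Figure D5:**
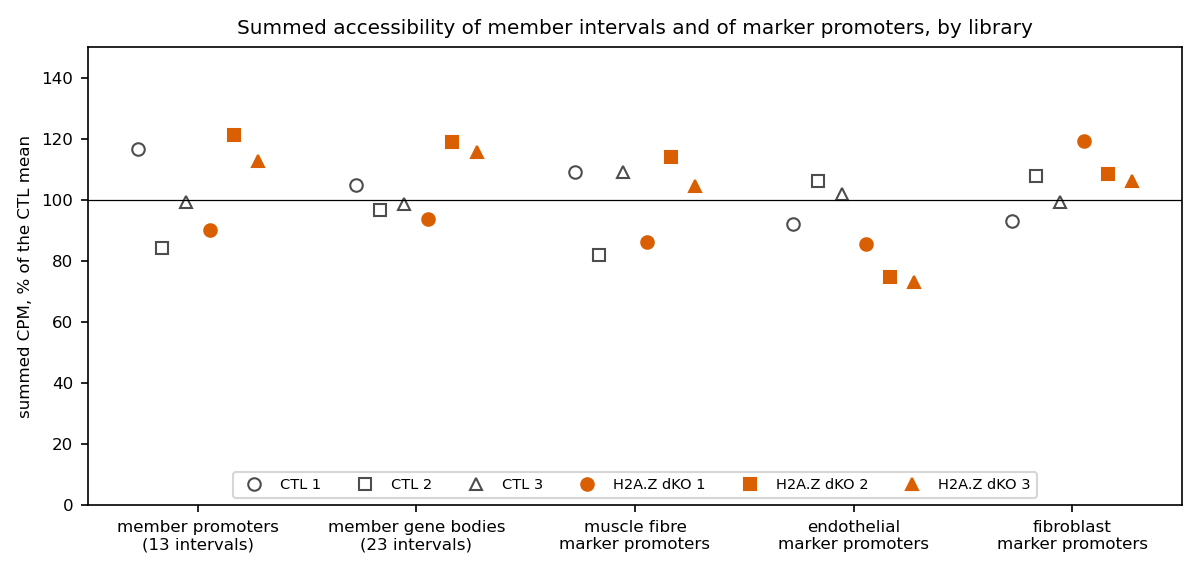
Summed CPM of member and marker intervals in each library, as a percentage of the CTL mean, with CTL libraries open and H2A.Z dKO libraries filled. H2A.Z dKO replicate 1 and CTL replicate 2 are the lowest at member promoters and at muscle fibre marker promoters, and the endothelial marker sum is lower in all 3 H2A.Z dKO libraries than in CTL.

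The deposited table also assigns each interval to a set, called in H2A.Z dKO only, in CTL only or in both groups. Of the 38 members 24 (63.2%) are listed for H2A.Z dKO only, 9 for both and 5 for CTL only, against 43.4%, 38.7% and 17.9% of all intervals. The share called in H2A.Z dKO only depends on the class, with 15 of the 23 gene-body members (58.9% of all genic intervals) and 9 of the 15 promoter members (31.7% of all promoter intervals). All 3 intervals of Myom2, 3 of 4 of Ttn, 3 of 4 of Myom1 4 of 5 of Mybpc1, 6 of 9 of Ldb3, 4 of 7 of Neb and 1 of 3 of Myom3 are listed for H2A.Z dKO only, and none of Mybpc2. This set rests on peaks called from the same libraries, so it is not independent of the comparison. In that set as a whole, 69.8% of intervals had a log2 fold change above 0 and 5.15% were higher at an unadjusted p under 0.05 (edgeR). Of the 24 members listed so, 21 had a log2 fold change above 0 (median 0.15), and they include the 4 with an unadjusted p under 0.05. Of the 9 listed for both groups 4 were above 0 (median -0.11), against 43.7% of that set. Of the 5 listed for CTL only 2 were above 0 (median -0.0079), against 29.5% of that set. The excess of members above 0 thus lies in the intervals called in H2A.Z dKO only.

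In base composition and motifs, windows of 200 bp centred on each interval were compared with the same windows of all intervals of the class. The median GC content was 54.0% at the member promoters, against 65.0% at all promoter intervals, and the median number of CpG was 5, against 16. In gene bodies the members hardly differed, at 52.5% and 53.0% GC and 3 CpG in both. The GC box GGGCGG was found in 3 of 15 promoter windows, all of Mybpc2, whereas 56.9% of all promoter windows hold it, and in 5 of 23 gene-body windows, against 11.1% of all genic windows. Among the gene-body stretches read outside exons, only those of Ldb3 Peak_30550 and Peak_30551 hold it. They belong to the 4 neighbouring Ldb3 intervals with 61.5% to 70.0% GC, whose windows share a locus and are not independent. A CArG box was found in 3 of 15 (Myom1 and the overlapping pair of Ldb3), against 0.730% of all promoter windows, and in 1 of 23 gene-body windows (Mybpc1 Peak_23063), against 1.21%. CAGCTG was in 5 of 15 and 9 of 23 windows, against 12.0% and 25.1%, and CATTCC in 3 of 15 and 4 of 23, against 6.98% and 13.5%. MEF2 matches were in 0 of 15 and 0 of 23 windows, against 1.24% and 5.53%, since the match at Ttn lies in the outer part of Peak_3654, beyond the window. Overlaps between these short motifs were not removed.

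A further list of 51 genes (Z-disc, M-band and titin-binding, thin filament assembly, thick filament) had 171 intervals at 45 genes, of which 102 had a log2 fold change above 0 and 69 below, with a median of 0.049. None had an adjusted p under 0.05 (0 of 171 by edgeR). At an unadjusted p under 0.05 by edgeR there were 14 (8.19%, against 4.95% of all intervals). Of these 12 were higher and 2 lower, where 2.64% and 2.31% of all intervals were called in these directions. Of these 14, 9 were promoter and 5 gene-body intervals. They include the overlapping Peak_7223 and Peak_7224 of Nexn and more than 1 interval each of Capn3, Nrap and Tmod1, so they are not independent. The smallest p belonged to a promoter interval of Capn3, a protease bound to titin (Peak_4155), with 80.7, 72.9 and 59.0 RPKM in CTL and 102, 143 and 122 RPKM in H2A.Z dKO, a log2 fold change of 0.74 (SE 0.24, adjusted p 0.972 from edgeR). All H2A.Z dKO libraries were higher at this interval. In the other direction it was a promoter interval of Pdlim5, a Z-disc relative of Ldb3 (Peak_7100, 24 bp), with 157, 279 and 272 RPKM in CTL and 184, 101 and 141 in H2A.Z dKO and a log2 fold change of -0.65 (SE 0.30, adjusted p 0.972 from edgeR), where the groups overlap. In CTL the highest promoter levels of the list were those of Ankrd23 (368 ± 25.8 RPKM), Nbr1 (351 ± 22.997 RPKM) and Tcap (331 ± 78.6 RPKM). All were above the highest promoter interval of the 9 genes. The intervals of Ankrd23 and Tcap are narrow, at 18 and 34 bp, and that of Nbr1 is 392 bp wide. Wider promoter intervals were lower in CTL, at 149 and 182 RPKM in Ankrd23 (Peak_205 and Peak_207) and 155 and 145 RPKM in Tcap (Peak_25917 and Peak_25918).

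Among 545 other genes with at least 5 gene-body intervals, the gene-body sums of Gipc2, Tspan15 and Samd4 followed the summed gene-body level of the members most closely over the 6 libraries, with a Pearson's r of log2 CPM of 0.989, 0.971 and 0.970. The points share libraries and depth, and with 6 of them the order of such genes is a description only.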

How the data were processed

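ATAC-seq counts were analysed for 3 CTL and 3 H2A.Z dKO libraries. The authors trimmed adapters (Trimmomatic), mapped read pairs to mm9 (Bowtie in the methods, Bowtie2 in the submitters' processing notes), removed duplicates (Picard), shifted fragment ends for Tn5, called peaks with MACS2 and deposited raw counts of fragment ends per union interval. Their steps set which intervals exist, and cover no DNA between them. The authors also deposited, per interval, the set in which it was called, a mean of scaled counts (a signal, with no name in the header), a DESeq2 log2 fold change, its standard error and Wald score, a p-value with its adjusted p-value, and another column that is constant. Apart from the set, none of these was used. Library columns were matched by name, with 0 left unused.

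Interval starts were read as 0-based, and intervals were assigned to genes with GENCODE vM1. Counts were compared with edgeR 4.0.16 (R 4.3.3, TMM factors between 0.971 and 1.02, the quasi-likelihood test in its robust form, no replicate block). P-values were adjusted by Benjamini-Hochberg across the 39768 intervals, and 0.05 was the threshold. No interval was filtered out. Sums per gene were fitted over all protein-coding genes. CPM use the TMM-scaled library sizes, RPKM the total counts in intervals and the interval width. Library totals were 3520008 to 6117245 counts, and errors cover counting and library-to-library spread but not any PCR copies left after duplicate removal. The tests were tried on simulated counts. Other tools were DESeq2 1.42.0, limma 3.58.1, Python 3.11.15, pandas 2.3.3, scipy 1.17.1 and pysam 0.24.0.

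Members and gene lists were chosen with earlier results of these data known. Named are all promoter intervals of the members and, per gene, the gene-body interval with the highest RPKM and those with the smallest p in each direction. For the other sarcomere genes they are the smallest p in each direction and the 3 genes with the highest promoter RPKM, and for likeness the 3 genes with the highest r. The remaining gene-body intervals were named after their values were seen. Alternatives were DESeq2, limma voom, other scalings, a filter on counts, a replicate block, other definitions of promoter, gene body and overlap, and each library left out. RNA-seq and ChIP-seq were not analysed here.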

Additional observations from a re-analysis of the deposited data

How the results depend on the processing

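No interval and no sum per gene had an adjusted p under 0.05 in the alternatives run (edgeR, DESeq2 and, for intervals, limma voom), and the smallest adjusted p was 0.481 for a member and 0.446 for a sum of members. Of the 50 log2 fold changes examined (38 members, 10 sums, Capn3 and Pdlim5), 47 kept their sign in every alternative other than leaving out a library, and 23 also did so with any library left out. At an unadjusted p under 0.05 edgeR gave 1970 intervals, 4 of them members, all higher. DESeq2 gave 756 intervals (1.90%) and 1 member (1 higher), limma voom gave 2 members (2 higher, with 5.02% of all intervals), median-of-ratios factors 4 (4.95%), total counts 3 (4.80%) and a mean of at least 20 counts 3 (4.02%). The sign changed with limma voom at Myom1 Peak_36120 (-0.0065) and Peak_36122 (-0.021), and with DESeq2 at Myom2 Peak_17312 (0.0062). The percentile of Ttn Peak_3654 among promoter intervals was 45.4 by RPKM and 61.8 by CPM. Replicate numbers did not pair the libraries (correlations of same-numbered deviations -0.124, -0.064 and -0.052), and with a replicate block 3 members had an unadjusted (4.42% of all intervals) and 0 an adjusted p under 0.05, and Peak_36122 was at -0.0049. Leaving out a library gave 1265 (CTL replicate 3) to 3163 (H2A.Z dKO replicate 1) intervals at an unadjusted p under 0.05, and 0 (H2A.Z dKO replicate 2) to 6 members (H2A.Z dKO replicate 1), all higher. It moved the log2 fold change of promoter sums from 0.020 to 0.37 in Ttn, -0.0077 to 0.25 in Neb, -0.012 to 0.17 in Mybpc2 and 0.011 to 0.27 in Ldb3, and of gene-body sums from 0.012 to 0.20 in Neb, -0.084 to 0.18 in Myom1, -0.021 to 0.46 in Myom2, -0.091 to 0.090 in Myom3, 0.051 to 0.35 in Mybpc1 and 0.13 to 0.20 in Ldb3. Single intervals ranged from -0.089 to 0.33 in Ttn Peak_3653, from -0.047 to 0.58 in Neb Peak_3353, -0.44 to 0.16 in Peak_3354, -0.28 to 0.017 in Peak_3356 and -0.29 to 0.073 in Peak_3359. Those of Myom1 ranged from -0.13 to 0.29 in Peak_36119, -0.098 to 0.18 in Peak_36120, -0.31 to 0.24 in Peak_36121 and -0.088 to 0.14 in Peak_36122, and those of Myom2 from -0.22 to 0.21 in Peak_17312, -0.063 to 0.53 in Peak_17313 and -0.025 to 0.32 in Peak_17314. For Myom3 Peak_9160 it was -0.13 to 0.093, for Peak_9161 -0.26 to 0.059, for Mybpc1 Peak_23065 -0.22 to 0.11 and Peak_23066 -0.13 to 0.29. Mybpc2 gave -0.082 to 0.16 in Peak_15218 and -0.012 to 0.18 in Peak_15219 and in Peak_15220, and Ldb3 -0.024 to 0.29 in Peak_30553, -0.24 to 0.22 in Peak_30554 and -0.096 to 0.44 in Peak_30557. The log2 ratio of the floxed segment of H2afz was -0.31 to 0.016, above 0 without CTL replicate 2 alone. The cause of these differences was not tested. With 3 libraries a group and a median of 58.8 counts per library in a member, a change of 1.5-fold or more fell outside the 95% interval in 18 of 38 members.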
